A study of Mus musculus with 32 samples.

Results

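The 10 genes described here encode subunits, upstream regulators and substrates of the protein kinase complex mTORC1: Mtor, Rptor, Deptor, Akt1s1, Tsc1, Tsc2, Rheb, Sesn1, Rps6kb1 and Eif4ebp1. They were picked by name from the deposited count and TPM tables, and each name matched 1 of the 24952 genes. A gene was tested if 8 or more libraries reached 1 CPM (counts scaled to one and the same library total), and all 10 were among the 13990 genes that did.

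mTORC1 is a nutrient and growth-factor sensor that raises protein synthesis and holds back autophagy when amino acids, energy and insulin or IGF signals are sufficient. Growth factor signals relieve the brake that Tsc1 and Tsc2 place on the small GTPase Rheb, and Rheb then switches the kinase on at the lysosome, where amino acids bring the complex through the Rag GTPases. In skeletal muscle the complex is needed for growth and fibre size, and lasting activation by loss of Tsc1 is known to cause a myopathy. These steps run largely through phosphorylation and location, which RNA levels do not measure.

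The RNA came from the tibialis anterior (TA) muscle. Regions with neuromuscular junctions (NMJ) and extra-synaptic regions without them (xNMJ) were cut by laser from sections in which α-bungarotoxin marked the acetylcholine receptors. The mice were wild-type C57BL/6JRj males, caged alone and fed AIN93M diet, either for 2 to 3 months up to an age of 10 months or for 16 months up to an age of 30 months. Each age and region had 8 libraries, 32 in all, named below by age and region (10m xNMJ for the extra-synaptic regions of the younger mice), and many captured areas were pooled in a library. The labels do not tie libraries to mice, so that p values measure the spread between libraries. Age and length of diet changed together and cannot be told apart. In such captured tissue, fewer cells of a type and less RNA per cell cannot be told apart either.

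Library totals had a lowest, median and highest value of 4026648, 6062117 and 10258988 counts in 10m xNMJ. They were 7080227, 9605869 and 16516788 in 10m NMJ, 4424672, 6790011 and 13182475 in 30m xNMJ, and 6703228, 9825357 and 16422527 in 30m NMJ. Depth was thus greater on the synaptic side at 10 months, where an exact permutation test (two-sided) gave p = 0.0131, or 0.0392 after adjustment over all 36 tests of library totals, inserts and marker sums. At 30 months this exact test gave p = 0.0488 and 0.118 after adjustment.

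Marker genes fitted the labelled regions. In the counts of marker genes below, higher and lower mean called in edgeR's test of each gene at an adjusted p under 0.05. Of all genes tested, 6.5% were called higher and 5.05% lower at 10 months, and 5% and 4.25% at 30 months. All 8 markers of the fibre nuclei under the synapse were higher in NMJ than in xNMJ at both ages, and their summed CPM had medians of 3626 against 68.7 at 10 months and 3454 against 66.5 at 30 months. All 6 Schwann cell markers and 4 of 5 fibroblast markers were also higher in NMJ at both ages. At 10 months, the summed CPM of the Schwann list had medians of 205 in NMJ and 11 in xNMJ, and that of the fibroblast list 1156 and 143. Of the 6 muscle fibre markers, 4 were lower in NMJ at both ages, with summed medians of 59613 against 97081 CPM at 10 months. The synaptic, Schwann, fibroblast and fibre sums did not overlap between regions at either age (exact permutation test, adjusted p = 0.000622 for each, from the smallest p that this design allows). The most abundant marker was Prkar1a (mean 482 TPM) in the synaptic list, Dcn (372) in the fibroblast list and Tnnt3 (27988) in the fibre list. Macrophage markers were higher in NMJ for 2 of 4 genes at 10 months and 1 of 4 at 30 months, and their summed CPM had medians of 42.3 against 8.96 (exact permutation test, adjusted p = 0.000622) and 33.4 against 8.28 (exact, adjusted p = 0.118). By direction alone, all 5 fibroblast and all 4 macrophage markers had log2 fold changes above 0 at both ages, and all 6 fibre markers below 0. Of 4 endothelial markers none was called higher in NMJ and 1 was called lower at 30 months. By direction, 1 of them was above 0 at 10 months and 0 at 30 months. The endothelial sums had medians of 55.0 against 71.7 (exact permutation test, adjusted p = 0.0264) and 36.4 against 83.0 (exact, adjusted p = 0.0145). The most abundant genes of the macrophage and endothelial lists were Cd68 (11.8 TPM) and Cdh5 (11.6). Of 4 stem cell markers 2 were tested and neither was called, the most abundant being Vcam1 (1.14 TPM). The part of these cells in the results below was not tested.

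A library of the 30m xNMJ group, replicate 5, stood apart. It had 13182475 counts and an average insert of 130 bases, where the other 7 libraries of its group had 4424672 to 7490555 counts and inserts of 79 to 109 bases. Its synaptic markers summed to 866 CPM, above the 55.3 to 96.0 CPM of the other 7 and below the 3161 to 5135 CPM of 30m NMJ. Its fibroblast sum of 285 CPM and Schwann sum of 28.5 CPM were also above the others, at 88.5 to 209 and 4.75 to 16.7. The fibre sum of 99650 CPM lay within their range. The plot of fold changes therefore shows every member with and without it. Without it 1 member call was gained, that of Mtor at 30 months, and a direction turned for Deptor between regions at 30 months (0.08 to -0.01) and for Rheb between ages in xNMJ (0.10 to -0.17). The 30m NMJ library numbered 5 had the highest total (16422527), insert (129 bases) and synaptic sum (5135 CPM) of its own group. It also had the lowest Mtor of that group (2.04 CPM), and no fit left out both libraries.

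Levels are given in TPM, which allow genes to be compared because they are corrected for transcript length. TPM are shares of a library, and without a further scaling factor the typical gene read higher in NMJ: the median difference of all tested genes on the log2(TPM + 1) scale was 0.37 at 10 months and 0.49 at 30 months. The tests used counts with TMM factors, under which the median log2 fold change of all genes was 0.004 and -0.01. A TPM level that is higher in NMJ by about that shift is therefore no difference in the tests.

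In TPM the 10 genes covered a wide range. Rheb (mean over 32 libraries 50.9 TPM) and Eif4ebp1 (50.6) stood highest, followed by Deptor (17.1), Rps6kb1 (10.8), Tsc2 (8.96), Sesn1 (6.77), Akt1s1 (5.50), Rptor (4.02), Tsc1 (3.96) and Mtor (2.56). The kinase itself was thus the lowest of the 10, and it took the last place in each of the 4 groups. Several neighbours in this order were not apart: Rheb exceeded Eif4ebp1 in 19 of 32 libraries, Rps6kb1 exceeded Tsc2 in 19, Sesn1 exceeded Akt1s1 in 15, and Rptor exceeded Tsc1 in 14. The clearest step was Eif4ebp1 over Deptor, in 31 of 32 libraries. Deptor over Rps6kb1 held in 25 and Tsc1 over Mtor in 24. Tsc2 over Sesn1 and Akt1s1 over Rptor held in 22 libraries each. By group means, Eif4ebp1 stood above Rheb in 30m NMJ (75.1 against 53.3 TPM), and Rptor, Akt1s1 and Tsc1 changed places between groups. The counts behind these levels differed, since Mtor rested on as few as 2 counts in a library and Deptor on no fewer than 244.

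**Figure D1:**
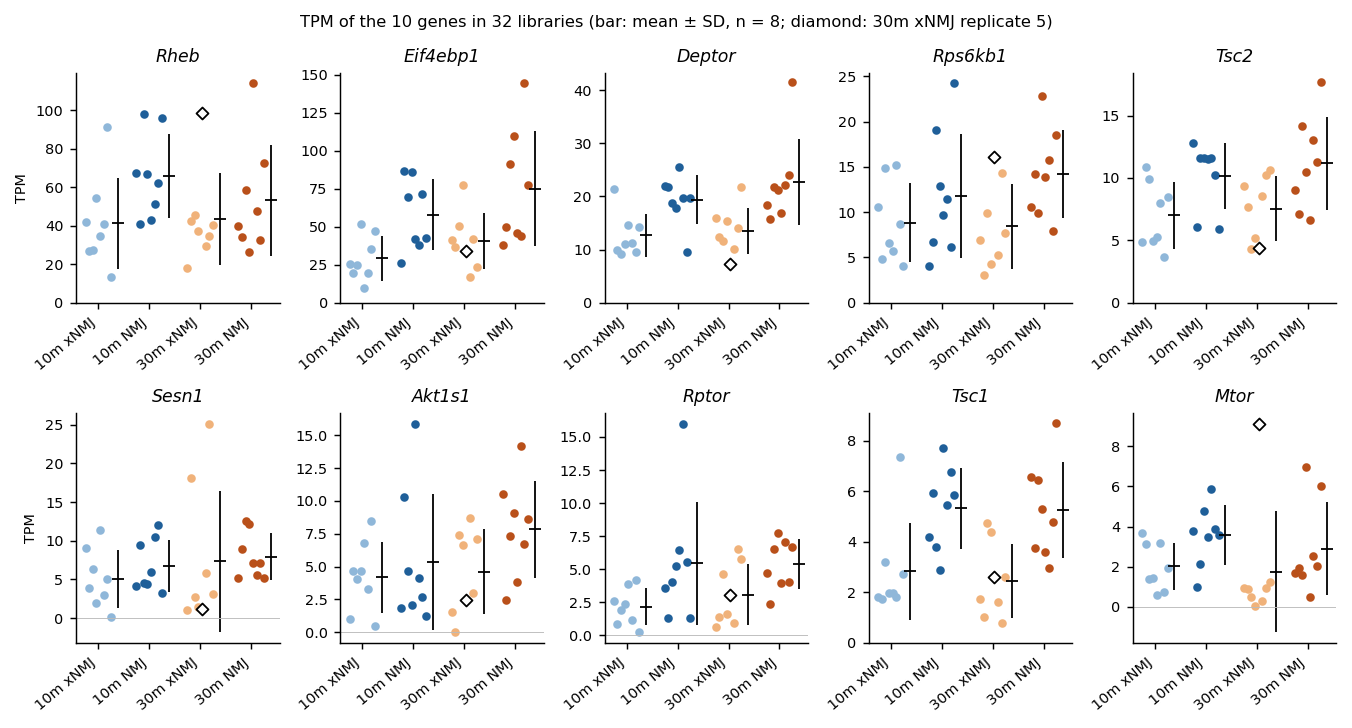
TPM (linear axes, a scale for each panel) of the 10 genes in the 32 libraries, with a point per library, a bar for the mean ± SD of 8 libraries and a diamond for 30m xNMJ replicate 5. The groups overlap for every gene, and the diamond is the highest point of Mtor at 9.12 TPM.

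Across the 5 comparisons no member passed the test. At 10 months, 0 of 10 members were called between NMJ and xNMJ in edgeR's quasi-likelihood test with Benjamini-Hochberg adjustment over all genes, where 11.5% of all genes tested were called. At 30 months it was again 0 of 10, beside 9.26% of all genes. Between 30 and 10 months, 0 of 10 members were called in NMJ (0% of all genes) and 0 of 10 in xNMJ (0.0429%). The interaction of age and region gave 0 of 10 members (0% of all genes). In none of the 5 comparisons did a member have an unadjusted p under 0.05, and DESeq2 called 0 members in each. Of all genes, 22.8% and 20.7% had an unadjusted p under 0.05 between regions at 10 and 30 months, 2.66% and 9.45% between ages in NMJ and xNMJ, and 5.06% for the interaction. DESeq2 called 14.6% and 12.2% of all genes between regions, 0 genes between ages in NMJ, 84 between ages in xNMJ (0.6%) and 10 for the interaction (0.0715%). With the replicate number as a block 0 members were called between regions, beside 13.1% and 10.9% of all genes.

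A missing call is not a sign that a gene stayed the same, and the precision differed between members. The median log2 fold change of the 10 genes was 0.11 and 0.23 between regions at 10 and 30 months, 0.07 and 0.11 between ages in NMJ and xNMJ, and -0.14 for the interaction. For all genes tested the corresponding medians were 0.004, -0.01, 0.02, 0.04 and -0.01. The 95% confidence interval stayed within a 2-fold change in either direction for 4 of 10 members between regions at 10 months, 5 at 30 months, 5 between ages in NMJ, 5 in xNMJ and 2 for the interaction. Standard errors ran from 0.20 to 0.62 log2 units in the comparisons between groups, beside a median of 0.50 over all genes.

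**Figure D2:**
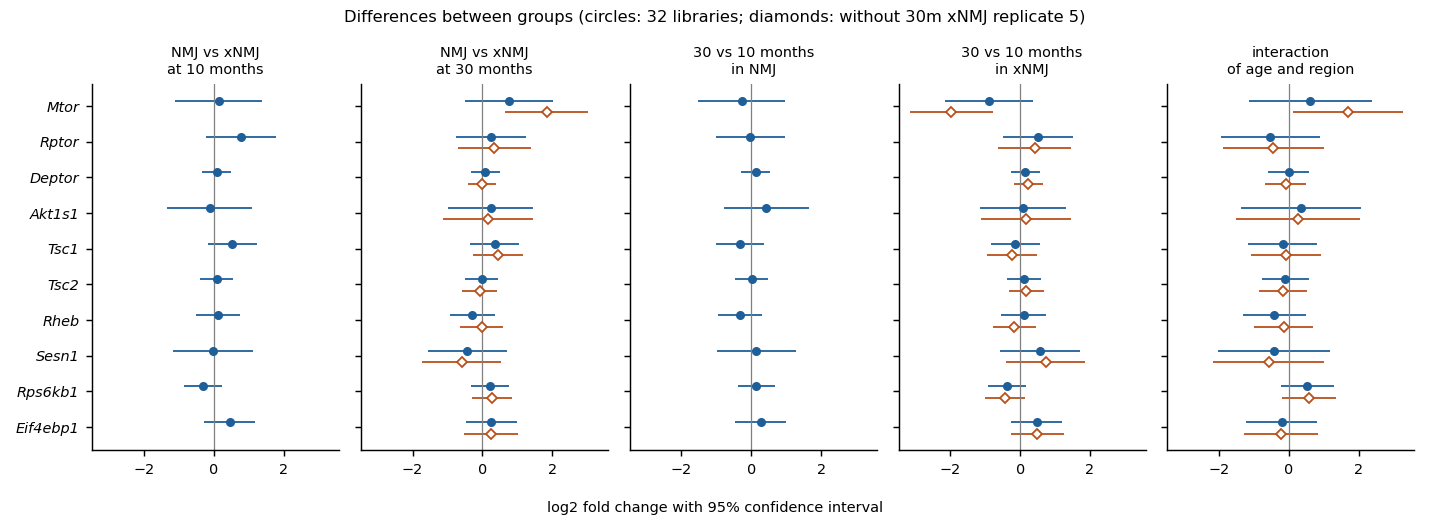
Log2 fold changes with 95% confidence intervals of the 10 genes in the 5 comparisons, from 32 libraries (circles) and without 30m xNMJ replicate 5 (diamonds, where that group enters). Every circle's interval crosses 0, and Mtor is the gene whose diamonds lie farthest from its circles.

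Mtor (chr4:148448611-148557683, + strand; positions are GRCm38, GENCODE M21) encodes the kinase. Its TPM had a lowest, median and highest value of 0.620, 1.70 and 3.66 in 10m xNMJ, 1.005, 3.68 and 5.89 in 10m NMJ, 0.0440, 0.905 and 9.12 in 30m xNMJ, and 0.491, 1.98 and 6.95 in 30m NMJ. The groups overlapped, and the 30m xNMJ range was set by replicate 5, which alone had 399 counts where the other 7 libraries had 2 to 49. In edgeR the log2 fold change of NMJ over xNMJ was 0.15 (SE 0.61, adjusted p = 0.923) at 10 months and 0.76 (SE 0.62, adjusted p = 0.542) at 30 months. Between ages, 30 over 10 months, it was -0.28 (SE 0.61) in NMJ and -0.89 (SE 0.62, adjusted p = 0.730) in xNMJ.

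Without replicate 5 of 30m xNMJ, Mtor was higher in NMJ than in xNMJ at 30 months. The remaining 7 xNMJ libraries had 0.413 to 8.71 CPM (median 2.33), and the 8 NMJ libraries had 2.04, 10.6 and 35.4 CPM as lowest, median and highest. The log2 fold change was then 1.84 (SE 0.58, 95% confidence interval 0.66 to 3.02, edgeR adjusted p = 0.0355), with 10.5% of all genes called in that fit (12.2% at 10 months). The call was also made with DESeq2 (1.83, adjusted p = 0.00983, beside 14.1% of all genes called), with insert size as a covariate (1.95, adjusted p = 0.0339, beside 9.14%) and with the replicate number as a block (2.11, adjusted p = 0.0365, beside 10.3%). It was not made with limma on TMM-scaled log2(TPM + 1), where the difference was 0.72 (adjusted p = 0.125). Between ages in xNMJ, the log2 fold change of Mtor without this library was -1.96 (SE 0.59, edgeR adjusted p = 0.209, DESeq2 adjusted p = 0.0454 beside 1.09% of all genes called). The interaction was 1.69 (SE 0.78, edgeR adjusted p = 0.870). At 10 months the difference between regions was 0.15 with or without it. Every library was left out in turn, and this one was singled out after its values were seen. It held the highest Mtor level of its group, so that leaving it out had to raise NMJ over xNMJ. The fits above share that choice and are not independent of one another. All of them kept 30m NMJ replicate 5, which had the lowest Mtor of its group. Whether the library's synaptic signal, insert size or depth plays a part in its Mtor level was not tested.

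**Figure D3:**
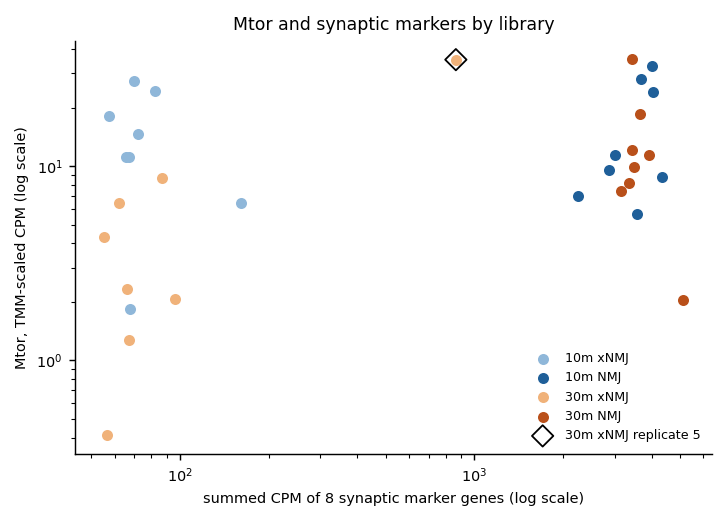
TMM-scaled CPM of Mtor against the summed CPM of the 8 synaptic markers (both log axes), with a point per library and a diamond around 30m xNMJ replicate 5. That library, at 866 CPM of synaptic markers and 35.3 CPM of Mtor, lies above every other xNMJ library on both axes.

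Rptor (chr11:119602905-119899576, + strand) encodes the scaffold that presents substrates to the kinase and defines this complex. Its TPM had a lowest, median and highest value of 0.237, 2.12 and 4.17 in 10m xNMJ, 1.32, 4.65 and 16.0 in 10m NMJ, 0.653, 2.33 and 6.54 in 30m xNMJ, and 2.37, 5.63 and 7.73 in 30m NMJ. The highest value came from 10m NMJ replicate 6, and the regions overlapped at both ages. Rptor had the largest log2 fold change of the 10 genes between regions at 10 months, 0.78 (SE 0.49, 95% confidence interval -0.22 to 1.78, edgeR adjusted p = 0.365). That rank rested on 10m NMJ replicate 6, without which Rptor was 0.39, below Tsc1 (0.60) and Eif4ebp1 (0.55). At 30 months it was 0.25 (SE 0.49, adjusted p = 0.835). Between ages it was -0.03 in NMJ and 0.50 in xNMJ (SE 0.49 in each, adjusted p = 0.9998 and 0.861). As the member with the smallest p between regions at 10 months, Rptor was used to look for genes of like pattern. Over the 32 libraries, the log2 CPM of Fam3c (r = 0.69), D930016D06Rik (0.68) and Dhx38 (0.65) followed it most closely among the genes tested. The libraries differ in depth and composition, and the part of these in the correlations was not tested.

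Deptor (chr15:55112317-55259271, + strand) encodes an inhibitor bound to the kinase in both mTOR complexes. It had a lowest, median and highest TPM of 9.10, 11.1 and 21.5 in 10m xNMJ, 9.62, 19.7 and 25.6 in 10m NMJ, 7.23, 13.2 and 21.7 in 30m xNMJ, and 15.7, 21.5 and 41.5 in 30m NMJ. On TMM-scaled counts these regions lay almost level: the log2 fold change of NMJ over xNMJ was 0.09 (SE 0.21, 95% confidence interval -0.33 to 0.51) at 10 months and 0.08 (SE 0.20, interval -0.34 to 0.49) at 30 months. From 10 to 30 months the change was 0.13 in NMJ and 0.14 in xNMJ. These are the narrowest intervals of the 10 genes, and at 10 months they allow a fold between 0.797 and 1.42. In 30m xNMJ replicate 5 Deptor had 56.2 CPM, below the 71.1 to 123 CPM of the other 7 libraries.

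Akt1s1 (chr7:44848991-44855421, + strand) encodes the other inhibitor of the complex, which is released when Akt phosphorylates it. Its lowest, median and highest TPM were 0.450, 4.35 and 8.48 in 10m xNMJ, 1.21, 3.42 and 15.9 in 10m NMJ, 0, 4.82 and 8.71 in 30m xNMJ, and 2.49, 7.99 and 14.1 in 30m NMJ. The 0 came from 30m xNMJ replicate 2, where 0 of 7490555 counts allow up to 0.533 CPM (3 counts, TMM-scaled), for counting error only. The log2 fold change between regions was -0.11 (SE 0.60) at 10 months and 0.23 (SE 0.60) at 30 months, and between ages 0.43 (SE 0.60) in NMJ and 0.09 (SE 0.60) in xNMJ. Its intervals were among the widest of the 10 genes, reaching from -1.33 to 1.11 at 10 months.

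Tsc1 (chr2:28641228-28691167, + strand) encodes the subunit that stabilises the Tsc2 brake. Its TPM had a lowest, median and highest value of 1.72, 1.97 and 7.36 in 10m xNMJ, 2.87, 5.66 and 7.69 in 10m NMJ, 0.787, 2.17 and 4.73 in 30m xNMJ, and 2.94, 5.03 and 8.69 in 30m NMJ. In 6 of 8 NMJ libraries at each age its CPM was above the xNMJ median, yet the regions overlapped. NMJ over xNMJ gave 0.53 (SE 0.34, 95% confidence interval -0.17 to 1.23, edgeR adjusted p = 0.380) at 10 months and 0.35 (SE 0.34, interval -0.35 to 1.05, adjusted p = 0.631) at 30 months. The change with age was -0.32 in NMJ and -0.14 in xNMJ.

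Tsc2 (chr17:24595816-24632630, - strand) encodes the GTPase-activating protein that turns Rheb off. It had a lowest, median and highest TPM of 3.65, 6.61 and 10.9 in 10m xNMJ, 5.94, 11.5 and 12.8 in 10m NMJ, 4.29, 8.11 and 10.6 in 30m xNMJ, and 6.63, 10.8 and 17.7 in 30m NMJ. The log2 fold changes were small: 0.08 (SE 0.23) and -0.02 (SE 0.23) between regions at 10 and 30 months, 0.01 and 0.12 between ages in NMJ and xNMJ. All of these intervals lay within a 2-fold change. Tsc2 shares 693 exonic bases with Pkd1 on the opposite strand, and 9.55% of its 31-base words occur in Pkd1 transcripts. Counting did not use strand, so reads of the shared stretch cannot be told apart. The other 9 members shared at most 5.6% of their words with the transcripts searched, and Deptor shared 4.97%, mostly with the non-coding gene Gm9920 on the opposite strand (303 exonic bases).

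Rheb (chr5:24802823-24842624, - strand) encodes the GTPase that activates the kinase. Its lowest, median and highest TPM were 13.5, 37.8 and 91.1 in 10m xNMJ, 41, 64.5 and 98.2 in 10m NMJ, 17.9, 39.0 and 98.4 in 30m xNMJ, and 26.5, 43.9 and 114 in 30m NMJ. Replicate 5 gave the highest value of both 30-month groups. The log2 fold change between regions was 0.13 (SE 0.31, edgeR adjusted p = 0.855) at 10 months and -0.28 (SE 0.31, adjusted p = 0.673) at 30 months. Without 30m xNMJ replicate 5 the latter was -0.02. The difference between ages was -0.31 in NMJ (SE 0.31), where 1 of 8 libraries at 30 months exceeded the 10-month median of 72.2 CPM, and 0.10 in xNMJ (SE 0.31), or -0.17 without that library.

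Sesn1 (chr10:41809935-41908424, + strand) encodes a stress-induced sestrin, which restrains mTORC1 through the amino-acid branch. Its TPM had a lowest, median and highest value of 0.159, 4.43 and 11.4 in 10m xNMJ, 3.24, 5.21 and 12.0 in 10m NMJ, 1.06, 2.93 and 25.1 in 30m xNMJ, and 5.15, 7.06 and 12.5 in 30m NMJ. In CPM at 30 months the mean and the median pointed in opposite directions, with means of 16.2 in NMJ and 21.9 in xNMJ and medians of 16.9 and 8.05, while in TPM both were higher in NMJ. Replicates 2 and 7 of 30m xNMJ had 63.8 and 66.8 CPM while the other 6 had 3.49 to 16.3 CPM, and all 8 NMJ libraries exceeded the xNMJ median. The fitted log2 fold change of NMJ over xNMJ was -0.44 (SE 0.56, edgeR adjusted p = 0.730), and it was -0.01 (SE 0.56) at 10 months. Its sign was not stable, being positive at both ages with limma on TMM-scaled TPM (0.18 and 0.21 at 10 and 30 months). At 30 months it was also positive without xNMJ replicate 2 (0.028) or 7 (0.061). Without TMM factors, which moves all genes alike, the log2 fold change was 0.56 and 0.18, beside all-gene medians of 0.56 and 0.61. Between ages it was 0.14 in NMJ and 0.56 in xNMJ (SE 0.56 in each).

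Rps6kb1 (chr11:86498871-86544805, - strand) encodes the S6 kinase, a direct substrate that promotes translation. It had a lowest, median and highest TPM of 4.06, 7.68 and 15.2 in 10m xNMJ, 4.05, 10.6 and 24.3 in 10m NMJ, 3.10, 7.31 and 16.0 in 30m xNMJ, and 7.97, 14.1 and 22.8 in 30m NMJ. The log2 fold change between regions was -0.30 (SE 0.26, edgeR adjusted p = 0.541) at 10 months and 0.22 (SE 0.27, adjusted p = 0.705) at 30 months. Between ages it was 0.14 (SE 0.26) in NMJ and -0.39 (SE 0.27, adjusted p = 0.722) in xNMJ, where 1 of 8 libraries at 30 months exceeded the 10-month median of 44.2 CPM. The interaction, 0.53 (SE 0.37, 95% confidence interval -0.23 to 1.29), had the smallest p of the 10 genes in that comparison and an edgeR adjusted p of 0.9999.

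Eif4ebp1 (chr8:27260329-27276674, + strand) encodes the repressor of cap-dependent translation that mTORC1 turns off by phosphorylation. Its lowest, median and highest TPM were 9.61, 25.2 and 52.0 in 10m xNMJ, 26, 56.3 and 87.0 in 10m NMJ, 17, 38.9 and 77.7 in 30m xNMJ, and 37.8, 64.0 and 144 in 30m NMJ. In 7 of 8 NMJ libraries at 10 months its CPM was above the xNMJ median. The fitted log2 fold change was 0.47 (SE 0.36, 95% confidence interval -0.26 to 1.19, edgeR adjusted p = 0.481) at 10 months and 0.25 (SE 0.36, adjusted p = 0.756) at 30 months. Between ages it was 0.27 in NMJ and 0.48 in xNMJ (SE 0.36 in each, adjusted p = 0.9998 and 0.758).

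On unscaled values some members passed the test, together with many other genes. With limma on log2(TPM + 1), Eif4ebp1 (1.01, adjusted p = 0.0259) and Tsc1 (0.79, adjusted p = 0.0403) were higher in NMJ at 10 months, and Deptor (0.70, adjusted p = 0.0209) and Tsc1 (0.92, adjusted p = 0.0150) at 30 months. In that fit 20.9% and 25.5% of all genes were called. Relative to the all-gene median, these differences were 0.64 and 0.42 at 10 months and 0.21 and 0.43 at 30 months. With edgeR without TMM factors, the called members were Deptor, Eif4ebp1 and Tsc1 at 10 months and Deptor, Rps6kb1 and Tsc1 at 30 months, beside 20.6% and 19.8% of all genes. Of those called genes 92.7% and 97.3% were higher in NMJ, against 56.3% and 54.1% with TMM. There the all-gene median was 0.56 and 0.61, and Deptor lay 0.08 and 0.10 above it, Tsc1 0.52 and 0.38. When limma was given TMM-scaled TPM, 0 members were called between regions at either age, beside 12.6% and 11% of all genes.

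Ratios of partners within a library kept their sign in nearly every library for 4 of 6 pairs. The log2 ratio of Deptor to Mtor, on TPM + 0.1, was above 0 in 31 of 32 libraries, with medians of 2.72 and 2.47 in xNMJ and NMJ at 10 months and of 3.98 and 3.22 at 30 months. The exception was 30m xNMJ replicate 5. Rheb exceeded Tsc2 and Eif4ebp1 exceeded Rps6kb1 in 32 of 32 libraries, and Tsc1 exceeded Tsc2 in 2 of 32. Rptor exceeded Mtor in 24 of 32 libraries, by group 4 and 6 of 8 at 10 months and 6 and 8 of 8 at 30 months. Its ratio had group medians of -0.03, 0.43, 1.76 and 1.204 in the same order of groups. Akt1s1 exceeded Mtor in 23 of 32. These ratios are a description and were not tested.

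**Figure D4:**
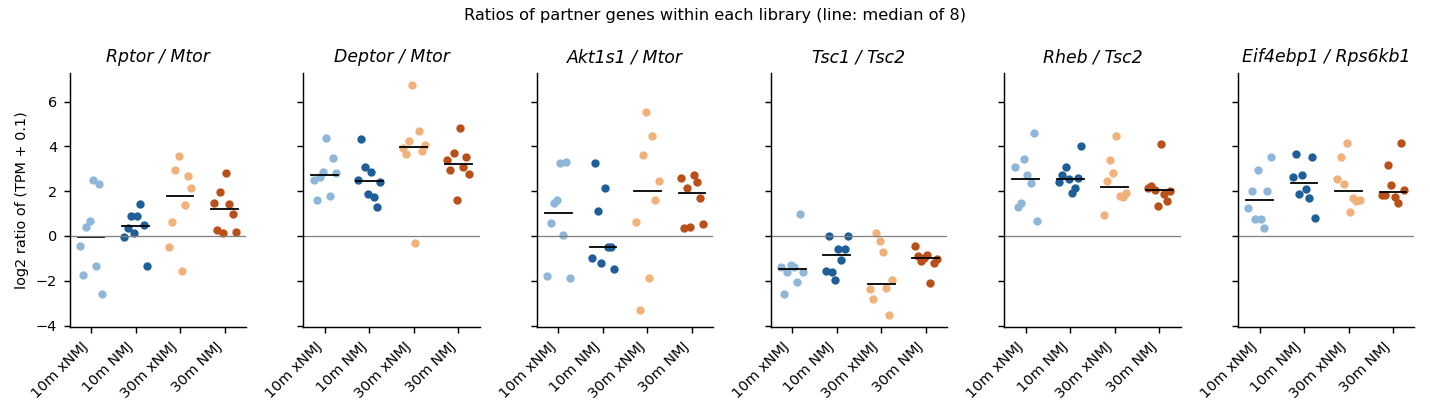
Log2 ratios of TPM + 0.1 between 6 pairs of partner genes within each of the 32 libraries, with a line at the median of 8 libraries. Rheb over Tsc2 and Eif4ebp1 over Rps6kb1 lie above 0 in every library, while Rptor over Mtor and Akt1s1 over Mtor cross 0.

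The spread between libraries of a group ordered the members in its own way. The pooled SD of log2 CPM was smallest for Deptor (0.41), at percentile 6.14 of all genes tested, then Tsc2 (0.46), Rps6kb1 (0.53), Rheb (0.63), Tsc1 (0.68) and Eif4ebp1 (0.76). It was larger for Rptor (1.09), Sesn1 (1.26), Mtor (1.305) and Akt1s1 (1.38), the last at percentile 75.0, beside an all-gene median of 0.98. The 6 steadier genes were also more abundant, with means of 4.03 to 6.54 log2 CPM against 2.55 to 3.70 for the other 4. After removal of group means, the members did not vary as a block: over the 32 libraries the correlation of log2 CPM for their pairs ran from -0.43 (Tsc1 with Sesn1) to 0.46 (Rptor with Sesn1), with 0.05 for Mtor with Rptor and -0.40 for Tsc1 with Tsc2. The genes of a pair share library depth, and these values are a description only.

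Start regions were compared because the ETS motif CCGGAA, the N-box, is the known element of synaptic transcription in muscle. RefSeq promoters, from 250 bases before to 50 after the start in GRCm38.p6, were matched for 8 of the 10 members, and not for Deptor and Eif4ebp1. On either strand, CCGGAA was found at Mtor, Akt1s1, Tsc2 and Rheb, and in 14.9% of 32851 promoters. It was also at 2 of 6 matched synaptic genes, Chrne and Prkar1a. Rheb had 3 matches and Tsc2 had 2, of which 1 is shown. The windows below are shown because they set members that were not called between regions beside the receptor subunit Chrne. Chrne had 231 to 564 TPM in 10m NMJ and 362 to 651 in 30m NMJ, and it was at 0 in 6 of 8 xNMJ libraries at each age, with a highest value of 1.60 TPM at 10 months and of 78.5 TPM, in replicate 5, at 30 months. Each is given 5′ to 3′ on the strand of the gene, with the motif or its reverse complement in capitals.
Mtor, chr4:148448332-148448367, + strand: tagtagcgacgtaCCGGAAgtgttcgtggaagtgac
Tsc2, chr17:24632613-24632652, - strand: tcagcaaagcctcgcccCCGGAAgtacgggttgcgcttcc
Rheb, chr5:24842396-24842435, - strand: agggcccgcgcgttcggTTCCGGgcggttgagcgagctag
Akt1s1, chr7:44850308-44850347, + strand: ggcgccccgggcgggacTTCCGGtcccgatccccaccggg
Chrne, chr11:70619248-70619287, - strand: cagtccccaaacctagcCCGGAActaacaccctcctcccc
The E-box CACGTG was found at Rheb and in 7.15% of promoters, and GTAAACA, the letters bound by FoxO factors, at Sesn1 and in 3.65%. Among the 6 matched synaptic genes they were found at 2 and 1. A match is a description of the letters, and no match says only that they are not in this window.

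The wider pathway was followed in 6 lists of 95 genes, of which 94 were in the files and 85 were tested. Rraga was not analysed here. Between regions, 7 of the 85 genes differed at 10 months, 5 higher and 2 lower in NMJ, which is 8.24% beside 11.5% of all genes tested (6.5% higher and 5.05% lower). At 30 months 5 differed, 4 higher and 1 lower, which is 5.88% beside 9.26% (5% higher and 4.25% lower). In edgeR 0 of the 85 differed between ages in NMJ, between ages in xNMJ or in the interaction, where 2, 9 and 6 had an unadjusted p under 0.05, and DESeq2 also called 0. A share near or below that of all genes is no result about the pathway, and the genes below are given for their own values.

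Among the 9 tested partners of the mTOR complexes, 1 was higher in NMJ at each age. The list's median log2 fold changes were 0.35 and 0.82, and its most abundant gene was Fkbp1a (85.3 TPM), which encodes the protein that rapamycin binds. Prr5, a subunit of mTORC2, had a median of 0.0632 TPM in 10m xNMJ and 0.881 in 10m NMJ, and its log2 fold change was 3.00 (SE 0.80, edgeR adjusted p = 0.00987). It had 0 counts in 4 of 8 libraries of 10m xNMJ, so that this fold depends on the handling of zeros, and without 10m xNMJ replicate 7 it was 3.60. At 30 months Prr5 was not called (1.07, adjusted p = 0.451). Tti1, a chaperone partner for kinases of this family, was higher in NMJ at 30 months by 2.47 (SE 0.79, adjusted p = 0.0433), with medians of 0.0670 TPM in xNMJ, where 3 of 8 libraries were at 0, and 3.10 in NMJ. Without 30m xNMJ replicate 8 the difference was 3.44. Its call was lost without 30m xNMJ replicate 5 (2.31, adjusted p = 0.0692), and in 12 of 32 fits that left out a library (adjusted p up to 0.109): those without xNMJ replicates 1, 2, 4, 5, 6 or 7 or NMJ replicates 1 to 5 at 30 months, or without 10m NMJ replicate 1. It was also lost with insert size as a covariate (2.00, adjusted p = 0.149), with only the 2 groups compared (2.44, adjusted p = 0.1004) and with no filter on low counts (2.52, adjusted p = 0.0528).

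Among the 24 tested genes of the Rag and lysosomal amino-acid branch, the median log2 fold change was -0.13 at 10 months and -0.09 at 30 months. Lamtor5 of the lysosomal anchor was the most abundant (182 TPM). Slc38a9, the arginine-sensing transporter of the lysosome, was higher in NMJ at both ages. Its TPM had a lowest, median and highest value of 0.342, 1.56 and 2.54 in 10m xNMJ and 2.46, 4.89 and 8.72 in 10m NMJ, which overlapped. At 30 months the xNMJ libraries had 0.225, 1.37 and 3.00 and the NMJ libraries 4.96, 7.25 and 9.19, which did not overlap in TPM. These TPM hold no TMM factors, and the typical gene read higher in NMJ by 0.49 at that age on the log2(TPM + 1) scale. The share of all genes without overlap is not given, here or for Igf1 below. NMJ exceeded xNMJ by 1.32 log2 units (SE 0.42, edgeR adjusted p = 0.0320) at 10 months and by 1.79 (SE 0.42, adjusted p = 0.00402) at 30 months. The call at 10 months was lost in 6 of 32 fits that left out a library, those without xNMJ replicates 1, 3 or 4 or NMJ replicates 6, 7 or 8 (adjusted p up to 0.0701), and with insert size as a covariate (1.32, adjusted p = 0.0573). Inserts had medians of 117.5 bases in 10m NMJ and 93.5 in 10m xNMJ (exact permutation test, adjusted p = 0.183). That test included 10m NMJ replicate 8 at 52 bases, where the other 10m NMJ libraries had 109 to 131 and the 10m xNMJ libraries 79 to 108. Castor2, a relative of the cytosolic arginine sensor, was lower in NMJ at 10 months (log2 fold change -0.72, SE 0.24, adjusted p = 0.0412), with medians of 38.8 CPM in NMJ and 67.1 in xNMJ. That call was lost in 10 of 32 such fits (adjusted p up to 0.0903), those without xNMJ replicates 1, 3, 5, 7 or 8 or NMJ replicates 3, 4, 6, 7 or 8 at 10 months, and under 9 other alternatives (adjusted p up to 0.691). In those alternatives with TMM factors or DESeq2 size factors, the log2 fold change of Castor2 lay between -0.73 and -0.62. It was -0.16 in edgeR without TMM factors, and -0.21 and -0.23 on unscaled log2(TPM + 1) and log2(TPM + 0.1).

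Of the 14 genes of insulin and IGF input, Igf1 was higher in NMJ at both ages. This growth factor of muscle and connective tissue had medians of 1.16 TPM in 10m xNMJ and 14.6 in 10m NMJ. At 30 months they were 0.922 and 16.6. The lowest NMJ libraries, at 6.72 and 11.6 TPM, stood above the highest xNMJ libraries, at 6.49 and 2.40, so that the regions did not overlap in TPM at either age. In TMM-scaled CPM they overlapped at 10 months, where the lowest NMJ library had 22.8 and the highest xNMJ library 30.8. The fitted difference was 2.14 (SE 0.56, edgeR adjusted p = 0.00845) at 10 months and 3.29 (SE 0.59, adjusted p = 0.000253) at 30 months, and no fit that left out a library lost either call, though without 10m xNMJ replicate 1 the difference at 10 months was 2.73. Fibroblast markers were higher in the same libraries, as given above, and their part in the Igf1 level was not tested. Pik3ca, the catalytic subunit of the lipid kinase below the receptor, was higher at 30 months by 0.70 (SE 0.22, adjusted p = 0.0323) and had 0.62 at 10 months (adjusted p = 0.0585). At 30 months it lost its call in 5 of 32 such fits, those without xNMJ replicates 5 or 8 or NMJ replicates 3, 6 or 7 (adjusted p up to 0.0895), and with replicate 5 of xNMJ left out it was 0.63 (adjusted p = 0.0608). With only the 2 groups compared it was 0.70 (adjusted p = 0.142). The list median was 0.25 at 10 months and 0.03 at 30 months, and Akt2 was the most abundant gene (32 TPM).

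The remaining lists held the kinase substrates and the stress inputs. Of the 10 genes of energy and stress input 0 differed in edgeR, with medians of -0.23 and -0.14, and Ddit4l was the most abundant (168 TPM). Of the 17 tested effectors of translation and autophagy 1 was lower in NMJ at each age, and the list medians were -0.12 and -0.10, with Rps6 as the most abundant gene (364 TPM). Lpin1, a phosphatidate phosphatase and regulator of lipid genes, had medians of 195 CPM in 10m NMJ and 362 in 10m xNMJ, and it was lower in NMJ (log2 fold change -0.95, SE 0.20, edgeR adjusted p = 0.00144). At 30 months it had -0.59 (adjusted p = 0.0614), and -0.63 (adjusted p = 0.0476) without 30m xNMJ replicate 5. Rb1cc1, the scaffold of the autophagy-starting kinase complex, was lower at 30 months (-0.79, SE 0.18, adjusted p = 0.00274), with medians of 80.4 and 138 CPM. Neither call was lost in a fit that left out a library, but without TMM factors Lpin1 at 10 months was -0.40 (adjusted p = 0.196) and Rb1cc1 at 30 months -0.16 (adjusted p = 0.528). Muscle fibre markers were lower in the same NMJ libraries, and their part was not tested. The TPM medians of Rb1cc1, without TMM factors, were 38.2 and 51.5.

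Of the 11 tested genes of ATF4 and its targets, a programme of amino-acid synthesis that mTORC1 is known to promote, 2 were higher in NMJ at 10 months and 0 at 30 months in edgeR. The list medians were -0.01 and 0.33, and Atf4 itself was the most abundant gene (89.0 TPM). Psat1, an enzyme of serine synthesis, was at 0 in 5 of 8 libraries of 10m xNMJ and in none of 10m NMJ, where it had 0.130, 2.76 and 9.41 TPM as lowest, median and highest (edgeR adjusted p = 0.00299). Asns, the asparagine synthetase, was at 0 in 6 of 8 libraries of 10m xNMJ and had 0.516, 1.40 and 10.0 TPM in 10m NMJ (adjusted p = 0.0418). The fitted log2 fold changes of 5.20 for Psat1 and 3.86 for Asns depend on the handling of such zeros, and were 6.56 for Psat1 without 10m xNMJ replicate 6 and 5.24 for Asns without 10m xNMJ replicate 3. Asns lost its call in 9 of 32 fits that left out a library, those without xNMJ replicates 1, 2, 4, 5, 7 or 8 or NMJ replicates 4, 5 or 8 at 10 months (adjusted p up to 0.0844), and with insert size as a covariate (3.93, adjusted p = 0.0550). NMJ libraries were the deeper ones, as given above, and the part of depth in these low genes was not tested.

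**Figure D5:**
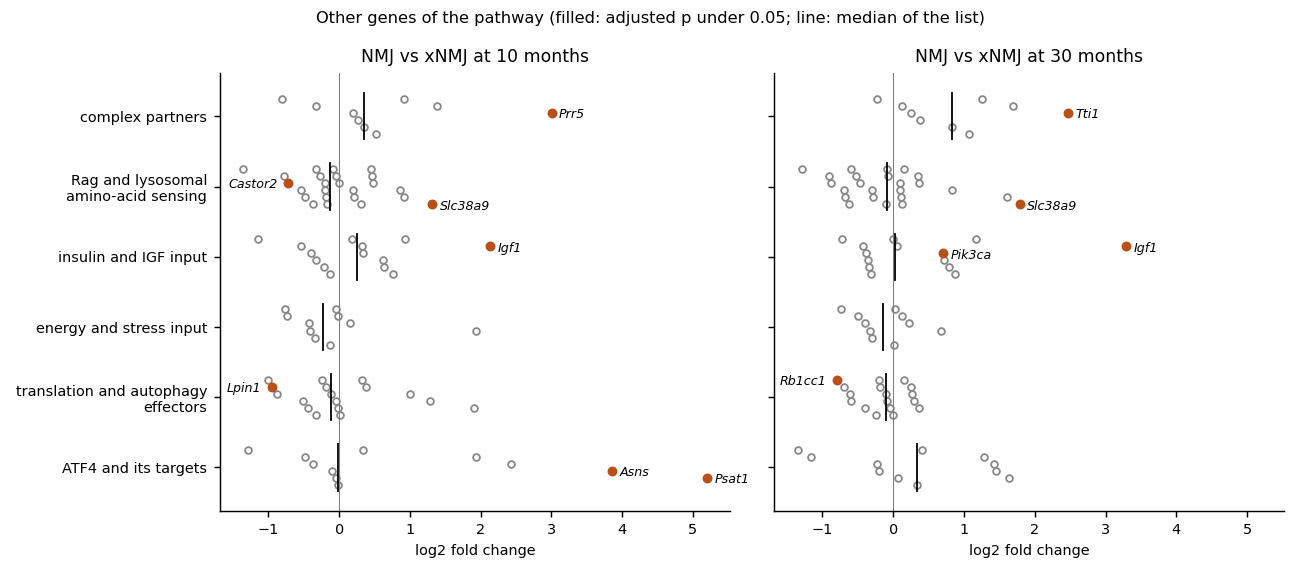
Log2 fold change of NMJ over xNMJ at 10 and 30 months for the 85 tested genes of the 6 pathway lists, with filled points for an edgeR adjusted p under 0.05 and a line at the median of each list. Igf1 and Slc38a9 are filled at both ages, and list medians lie between -0.23 and 0.82.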

How the data were processed

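The authors trimmed single-end reads of SMART-Seq v4 libraries with Cutadapt 1.9.1 and assigned them with kallisto 0.43.1 to transcripts of GRCm38, a read on n transcripts adding 1/n to each. Their methods name protein-coding transcripts, but 6281 of the 24918 deposited genes found in GENCODE M21 have none there (4.12% of counts). The authors deposited whole-number counts per gene, without normalization, and TPM, scaled for transcript length and library total.

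Counts were fitted with edgeR 4.0.16 (R 4.3.3; TMM factors, 4 groups together, at least 1 CPM in at least 8 libraries, quasi-likelihood test, two-sided, Benjamini-Hochberg adjustment over 13990 genes, threshold 0.05). CPM in the text are TMM-scaled, and log2 CPM used a prior count of 2. Limma 3.58.1 was run on log2(TPM + 1) and log2(TPM + 0.1), and DESeq2 1.42.0 on counts. Library measures were compared with exact permutation tests (scipy 1.17.1). Other alternatives were DESeq2 size factors, no TMM factors, no filter, only the groups compared, insert size as a covariate, the replicate number as a block, and fits without each library in turn. The fits were tried on simulated data with known changes, and figures were drawn with matplotlib 3.10.9.

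Totals were 4026648 to 16516788 counts per library, and, since reads carried no molecular identifiers, limits from counts cover counting error only. Members and lists were chosen with earlier results of these data known. Named genes are the 10 members, up to 3 genes per list and comparison with the smallest adjusted p under 0.05, the most abundant gene of each list (1 is not reported here), and the 3 genes most like the member with the smallest p between regions at 10 months. Exceptions, named after their values were seen, are Chrne and genes named again at the other age. Castor2 was matched by its identifier under an older symbol. Shared words are 31-base stretches of the members' GENCODE M21 protein-coding transcripts found, on either strand, in protein-coding transcripts of other genes or any transcript of a gene in the count table.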

Additional observations from a re-analysis of the deposited data

Results flagged for a closer look

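Of 48 sets of 8 libraries (the 10 genes, total counts and insert size in 4 groups each), 7 had a library whose gap to the nearest other was, as a share of the range, above Dixon's critical value. Chance sets about 1 in 20 such groups apart. Low values of log2 CPM were those of Rptor in 30m NMJ replicate 2 (3.10, others 3.96 to 4.72), Deptor in 10m NMJ replicate 7 (5.50, others 6.35 to 7.04), Akt1s1 in 30m xNMJ replicate 2 (-2.19 at 0 counts, others 1.63 to 3.80) and Sesn1 in 10m xNMJ replicate 8 (-0.41 at 3 counts, others 2.86 to 5.04). Replicate 5 had the highest total of both 30-month groups, 13182475 counts in xNMJ (others 4424672 to 7490555) and 16422527 in NMJ (others 6703228 to 10918779). The average insert of 10m NMJ replicate 8 was 52 bases (others 109 to 131).

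The Mtor level of 30m xNMJ replicate 5 was not set apart by this rule on the log2 scale, although leaving that library out moved the Mtor difference between regions at 30 months from 0.76 to 1.84.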

How the results depend on the processing

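Across 47 settings, members stayed uncalled except where named here; unless a value shows otherwise, the cause of a change was not tested. Values are in the order 10 and 30 months for the comparison of regions. Of the single-gene log2 fold changes, 426 kept direction and side of the threshold, 48 turned direction and 19 passed the threshold under an alternative, and 1530, 69 and 1 did so when a library was left out. The combined fits without 30m xNMJ replicate 5, described below, entered these counts for Mtor only. Turned directions include those of fits that do not centre the typical gene. The members with the widest spread were Sesn1, Mtor and Akt1s1, at 1.26 to 1.38 pooled SD of log2 CPM.

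Without a library scaling that centres the typical gene, more genes passed. Limma on log2(TPM + 1) called 2 and 2 members and 2918 and 3561 genes between regions, 3 between ages in NMJ and 0 in xNMJ; directions turned between regions for Akt1s1 (0.17 at 10 months), Sesn1 (0.54 and 0.71), Rps6kb1 (0.32 at 10 months), Tsc2 (0.52 at 30 months) and Rheb (0.29 at 30 months), between ages in NMJ for Rptor (0.20), and in the interaction for Deptor (0.12), Tsc1 (0.13), Tsc2 (0.0096) and Sesn1 (0.17). With log2(TPM + 0.1) there were 2 and 2 members, 3014 and 3681 genes between regions and 0 between ages in xNMJ, and the turned values were Akt1s1 (0.27 at 10 months, -0.18 between ages in xNMJ), Sesn1 (0.83 and 0.96), Rps6kb1 (0.35 at 10 months), Tsc2 (0.58 at 30 months), Rheb (0.30 at 30 months), Rptor (0.30 between ages in NMJ) and, for the interaction, Deptor (0.13), Tsc1 (0.22), Tsc2 (0.0047) and Sesn1 (0.13). EdgeR without TMM factors called 3 and 3 members and 2877 and 2767 genes, and turned Akt1s1 (0.45 at 10 months), Sesn1 (0.56 and 0.18), Rps6kb1 (0.27 at 10 months), Tsc2 (0.61 at 30 months), Rheb (0.31 at 30 months) and the interaction of Deptor (0.078). These fits moved the typical gene too, so that a turned direction there need not be a turn relative to other genes. Between regions the medians of all genes were 0.37 and 0.49 with log2(TPM + 1) and 0.57 and 0.73 with log2(TPM + 0.1). Without TMM factors they were 0.56 and 0.61. Between ages in NMJ they were 0.11 and 0.15 on the TPM scales, against 0.02 with TMM factors. Limma on TMM-scaled TPM called 1 gene between ages in NMJ and 0 in xNMJ, with turned values for Rptor (0.10 between ages in NMJ), Sesn1 (0.18 and 0.21 between regions, 0.029 for the interaction) and Tsc1 (0.019 for the interaction).

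DESeq2 called 84 genes between ages in xNMJ and 10 for the interaction, and turned Tsc2 between ages in NMJ (-0.021) and Sesn1 at 10 months (0.040), as DESeq2 size factors in edgeR did (-0.020 and 0.041). With only the groups compared, 0 genes passed between ages in xNMJ and Tsc2 between ages in NMJ was -0.0082. Insert size as a covariate left 2 genes between ages in xNMJ, with Rptor at 0.062 between ages in NMJ and Sesn1 at 0.031 at 10 months. Without a filter on low counts, Tsc2 was 0.048 at 30 months and Sesn1 0.064 at 10 months. In CPM in place of TPM, which favours long transcripts, the ranks by level were 1 for Deptor, 3 for Rheb, 4 for Tsc2, 5 for Rps6kb1, 6 for Tsc1, 7 for Sesn1, 9 for Mtor and 10 for Akt1s1.

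NMJ and xNMJ libraries share replicate numbers, and no label says that a number marks a mouse. Deviations of same-numbered libraries correlated with a mean r of 0.0893 at 10 months and 0.0807 at 30 months, over 0.1 in 4 and 1 of 8 pairs, so that not every pair exceeded 0.1 and the numbers were not taken as pairs. The highest r was 0.37, for replicate 5 at 30 months. At each age 4 of 8 libraries were closest to their own number, which is a hint of pairing from the data and not from the design. A replicate block gave 1829 and 1531 genes between regions, with the median of all genes at 0.13 and 0.17, and 0 members. It turned Sesn1 (0.34 and 0.44 between regions, 0.10 for the interaction) and the interaction of Deptor (0.00083).

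Leaving out each library gave 1433 to 1708 and 1106 to 1475 genes between regions, 0 to 9 between ages in xNMJ, 0 to 1 for the interaction and 0 to 1 members at 30 months, the 1 being Mtor. Ranges that crossed 0 or spanned over 0.5 were, at 10 months, Mtor -0.084 to 0.35, Rptor 0.39 to 0.99, Akt1s1 -0.61 to 0.12, Tsc2 -0.011 to 0.20 and Sesn1 -0.20 to 0.26, and at 30 months Mtor 0.36 to 1.84, Deptor -0.045 to 0.14, Tsc2 -0.10 to 0.056, Sesn1 -0.60 to 0.061, Rheb -0.56 to -0.018 and Eif4ebp1 -0.0040 to 0.49. Between ages they were Rptor -0.18 to 0.36, Tsc2 -0.074 to 0.089, Mtor -0.68 to -0.041 and Akt1s1 0.28 to 0.93 in NMJ, and Mtor -1.96 to -0.69, Sesn1 0.069 to 0.84, Akt1s1 -0.088 to 0.31, Tsc1 -0.42 to 0.060 and Rheb -0.17 to 0.34 in xNMJ. For the interaction they were Mtor 0.21 to 1.69, Akt1s1 0.12 to 0.84, Rptor -0.74 to -0.14, Rheb -0.69 to -0.15, Deptor -0.13 to 0.069, Tsc1 -0.38 to 0.10, Sesn1 -0.70 to 0.074 and Eif4ebp1 -0.47 to 0.027. Combinations with 30m xNMJ replicate 5 left out, chosen after seeing the data as were the fits without TMM factors and with TMM-scaled TPM, called 1 member at 30 months with DESeq2, with insert size and with the replicate block (Mtor in each; 2.11, adjusted p = 0.0365 with the block), beside 14.1%, 9.14% and 10.3% of all genes, 1 between ages in xNMJ with DESeq2 (Mtor, beside 1.09%), and 3 and 4 between regions without TMM factors, beside 21.5% and 23.1%. There Mtor was 2.47 at 30 months, or 1.83 above the median of all genes.

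Of the pathway genes, insert size as a covariate ended the calls of Asns, Castor2, Slc38a9 at 10 months and Tti1, the block, DESeq2 size factors and limma on TMM-scaled TPM that of Castor2, no filter those of Castor2 and Tti1, the groups compared alone those of Castor2, Pik3ca and Tti1, and the fit without TMM factors and limma on either TPM scale those of Castor2, Lpin1 and Rb1cc1. DESeq2 called 10 and 6 of the 85 pathway genes, or 11.8% and 7.06% beside 14.6% and 12.2% of all genes, and kept all 12 calls.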
